A study of Mus musculus with 22 samples.

Results

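Fst encodes follistatin, and it was followed here as 1 gene of the 32285 in the count tables, across the cell types, days and experiments of a gastruloid time course. The gene was chosen by its measured levels across cluster names, days and classes of gastruloid. Its row was found by the symbol Fst, which carries the identifier ENSMUSG00000021765. In the mm10 mouse genome with GENCODE annotation the gene lies at chr13:114452290-114458951 on the minus strand, with 6 annotated transcripts, of which 4 are protein coding. An antisense gene, Gm47040, covers 289 bases at its 5′ end. The sources used here do not say whether the counting used the strand. Gm47040 received 133 UMIs (unique molecular identifiers, each standing for 1 captured RNA molecule) in the whole data set, against 968732 for Fst.

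Follistatin is a secreted glycoprotein that binds activins with high affinity, and also binds GDF11, myostatin and some BMPs, and so keeps these ligands from their receptors. Activins, Nodal and GDF11 signal through type II receptors (Acvr2a, Acvr2b) and type I receptors (Acvr1b, Acvr1c, Tgfbr1) to Smad2 and Smad3, whereas BMPs act through Smad1 and Smad5. In the mouse embryo Fst is known from the primitive streak and later from the somites and parts of the hindbrain.

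Gastruloids are cultured aggregates of mouse embryonic stem cells in which tissues of the early embryo arise. Each group used here was made from the wild-type E14Tg2A line, aggregated in N2B27 medium and later given CHIR99021, which blocks GSK3 and thereby switches on Wnt signalling, so no group lacks this treatment. MULTI-seq marks all cells of a gastruloid with a lipid-bound DNA tag before gastruloids are pooled and the pool is split over 10x Chromium lanes. MULTI-seq 3 held 24 gastruloids of day 3, a pool of 16 of day 3.5 and 16 of day 4, and a pool of 16 of day 4.5 and 16 of day 5. MULTI-seq 2 gave 11 gastruloids of day 4 and 12 of day 4.5 from 1 pool, and MULTI-seq 1 gave 24 of day 5. A 10X experiment (1 lane each of day 3 and day 4) and another pool of MULTI-seq 2 carried no gastruloid calls. All groups derive from 1 cell line, and nothing in the labels says that gastruloids of an experiment came from separate cultures.

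Over all deposited barcodes the 18 lanes held 64703013 to 307883815 UMIs per lane. The 77674 cells of the authors' final table held 30065021 to 238431052 UMIs per lane. They had a median of 8287 to 38443 UMIs per cell and 1.94% to 5.48% mitochondrial UMIs. Of these cells, 53730 were assigned to 1 of 136 gastruloids, and 135 gastruloids with at least 30 cells were used. The same cell barcode occurred in more than 1 lane for 732 barcodes, with at most 15 shared by a pair of lanes. Cell types are the 25 cluster names of the authors' table. Markers of the named tissues, listed for this report, were above the median cluster for 18 of 20 names checked. The exceptions were Early Neurectoderm and Caudal Neurectoderm, where Pax6 and Irx3 were not above it. Caudal Epiblast, Early Nascent Mesoderm and NMPs (neuromesodermal progenitors) were among the names not checked. Somites and Mature Somites were checked by the same list, which cannot tell them apart. Levels are in CPM (UMIs per 1000000 UMIs), from the summed counts of a gastruloid or of its cells of 1 cluster name (at least 10 cells). Since those values chose the gene, its own levels and fold changes are a description and carry no p-value.

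Fst was highest in the youngest gastruloids and lower at each later day of MULTI-seq 3. At day 3 the 24 gastruloids ranged from 905 to 1455 CPM, with a median of 1241 and a mean of 1215 ± 132 (SD). At day 3.5 the lowest of 16 gastruloids was at 478, the median at 808 and the highest at 1213 (mean 789.8 ± 226). Day 4 gastruloids lay between 93.1 and 364 around a median of 196 (mean 197 ± 71.5, n = 16). The highest day 4 gastruloid was thus below the lowest of day 3.5, with which it shared a pool and its lanes. The fitted difference between those days was a log2 fold change of −2.03 ± 0.17 (SE).

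The later steps were smaller and the groups overlapped. At day 4.5 the 16 gastruloids of MULTI-seq 3 ran from 39.3 over a median of 141 to 257 CPM (mean 141 ± 78.0). At day 5 they ran from 58.7 over 84.5 to 169 (mean 92.5 ± 31.2, n = 16), and the fitted log2 fold change against day 4.5 was −0.63 ± 0.24. In MULTI-seq 2 Fst was at 226 ± 51.8 at day 4 (137, 230 and 313 as lowest, median and highest, n = 11). The 12 gastruloids of day 4.5 in that pool lay at 116 ± 63.9 (26.3, 122 and 213), with a fitted log2 fold change of −0.98 ± 0.27. Day 5 gastruloids of MULTI-seq 1 were at 74.1 ± 41.8 (35.2, 60.1 and 206, n = 24). The lanes without gastruloid calls gave 948 CPM at day 3 (95% Poisson interval 939.7 to 956, counting error only) and 126 at day 4 (122 to 129) in the 10X experiment. A sum over a whole gastruloid cannot tell fewer cells of a type from less RNA per cell, and the values within cell types are given below.

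**Figure D1:**
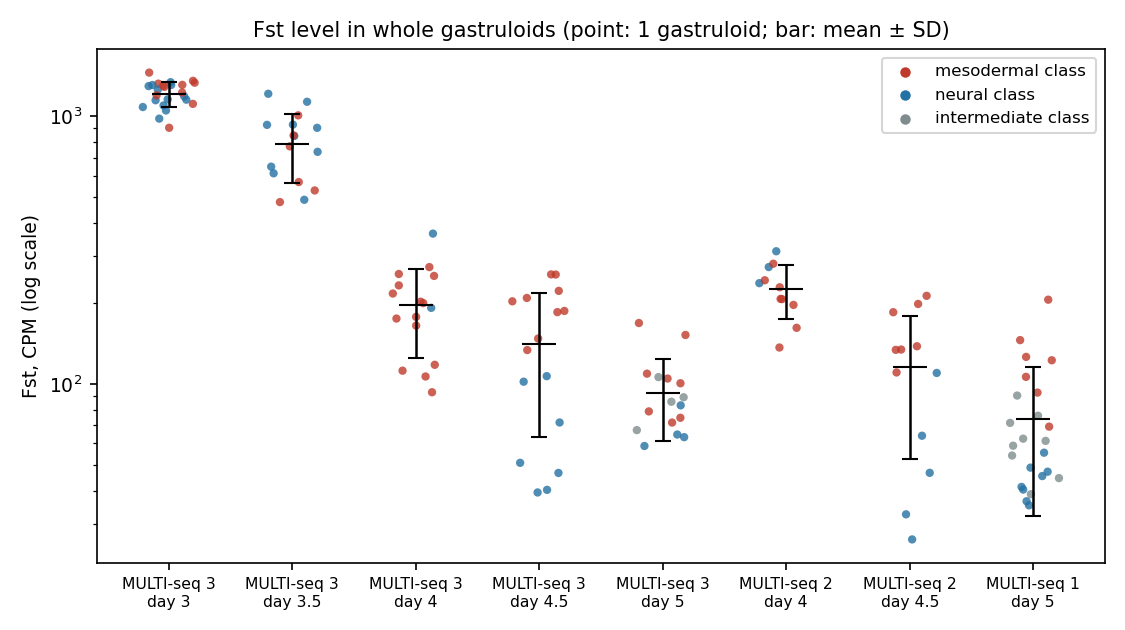
Fst level of each gastruloid (points; vertical log axis in CPM) by experiment and day, coloured by the class the authors' table gives the gastruloid, with mean ± SD as bars. Day 4 of MULTI-seq 3 (93.1 to 364) lies wholly below day 3.5 (478 to 1213), whereas later days overlap.

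The spread between gastruloids of 1 day widened from day 3 to day 4.5. The highest gastruloid of MULTI-seq 3 held 1.61, 2.54, 3.91, 6.52 and 2.88 times the Fst level of the lowest on days 3, 3.5, 4, 4.5 and 5. In the smaller MULTI-seq 2 groups this ratio was 2.29 on day 4 and 8.12 on day 4.5, and MULTI-seq 1 had 5.86.

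At day 3 several names stood together at the top in MULTI-seq 3. Caudal Epiblast was at 1363 ± 67.9 CPM (n = 6 gastruloids), Early Posterior PSM at 1354 ± 197 (n = 11), Primitive Streak at 1349 ± 86.5 (n = 24) and Early Nascent Mesoderm at 1343 ± 230 (n = 20). PSM is presomitic mesoderm, the tissue from which somites are cut. Neighbours among these 4 differed by less than the larger of their SDs. Early Neurectoderm (1020.3 ± 126, n = 21) and Anterior Primitive Streak (988 ± 279, n = 4) came next. Caudal Neurectoderm was lowest of the 7 names with at least 4 gastruloids, at 544 ± 195 (n = 5), and its range did not overlap that of Anterior Primitive Streak. Primordial germ cells, too few to compare by gastruloid, held 220.2 CPM over 58 pooled cells. The 10X lane of day 3 gave another picture, with Primitive Streak at 1212 (95% Poisson interval 1198 to 1226), Caudal Epiblast at 1096, Early Nascent Mesoderm at 785 (769 to 801) and Early Posterior PSM at 715. Caudal Neurectoderm was not lowest there, at 902 (827 to 982, 33 cells), and Anterior Primitive Streak was at 720.5. Mature Endoderm was at 20.4 there (13.1 to 30.4, 54 cells).

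By day 3.5 the cell types had moved apart. Primitive Streak, the transient structure through which cells leave the epiblast, was at 1514 ± 138 (n = 16 gastruloids), with a lowest gastruloid of 1313. Caudal Epiblast (1125 ± 155, n = 15) and Early Neurectoderm (920.3 ± 107, n = 9) followed. Early Posterior PSM was at 765 ± 284 (n = 13) with gastruloids from 431 to 1146, and its variance was 110 times that expected from counting alone. Caudal Neurectoderm (573 ± 97.4, n = 13), Early Nascent Mesoderm (476 ± 185, n = 6) and Late Posterior PSM (349.8 ± 140.1, n = 4) stood below it. Early Spinal Cord was at 75.7 ± 35.4 (n = 10), with no overlap with the name above it. In MULTI-seq 3 Early Nascent Mesoderm thus stood level with Primitive Streak at day 3 and well below it at day 3.5, but the 2 days come from different pools, and in the 10X lane of day 3 it was already below.

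Day 4 held both an early and a late set of Fst-rich cells. Primitive Streak remained in 5 gastruloids, whose levels were 276, 361, 860.3, 937 and 1237 CPM (mean 734 ± 406). Caudal Epiblast was at 579 ± 108 (n = 15) and Early Posterior PSM at 307 ± 65.2 (n = 16). Mature Somites, a name with at least 10 cells in 7 gastruloids at this day, was at 159, 160.4, 219.9, 242, 537, 562 and 649 (mean 361 ± 212). The 3 highest gastruloids had 166 to 265 Mature Somites cells and the 4 lowest 54 to 66, and the variance was 505 times that of counting. Somites, the earlier somitic name, were at 124 ± 30.1 (n = 12), in gastruloids from 87.5 to 164. Mature Endoderm was lowest of 16 names at 19.7 ± 18.4 (n = 14). In MULTI-seq 2 at day 4 Caudal Epiblast, at 651 ± 92.6 (n = 5), stood above Mature Somites at 421, 443, 452 and 522 (mean 459 ± 43.3). In the 10X lane of day 4 the order was the other way, at 321 (95% Poisson interval 300.3 to 342) and 379 (358 to 402).

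From day 4.5 on, Mature Somites stood highest. In MULTI-seq 3 this name was at 635 ± 135 CPM at day 4.5 (408 to 910.0, median 651, n = 13) and at 302 ± 97.0 at day 5 (150.3 to 494.5, median 307, n = 16). Among names with at least 4 gastruloids of at least 10 cells, the next was Late Anterior PSM at day 4.5 (115 ± 35.5, n = 9) and Late Neurectoderm at day 5 (69.3 ± 32.7, n = 4; 43.8 without lane C). Neither overlapped Mature Somites. At day 4.5 names with fewer such gastruloids stood between when cells were pooled. With each cell thinned to 5000 UMIs, the mean was 2.99 Fst UMIs per cell in Mature Somites, 1.19 in Early Posterior PSM (64 cells), 1.05 in Early Anterior PSM (64 cells), 0.76 in Late Neurectoderm (249 cells) and 0.56 in Late Anterior PSM (208 cells). Somites were at 80.6 ± 39.5 at day 4.5 (24.2 to 155, n = 10) and at 22.6 ± 9.66 at day 5 (10.2 to 39.2, n = 12). The 2 somitic names share their markers. Meox1, a somite transcription factor, was at 417 CPM in Mature Somites and 317 in Somites, and Tcf15, which marks the epithelial somite, at 671 and 1001. Meox2, which is known from later somites, was at 33.2 against 1.54, and Aldh1a2, the enzyme that makes retinoic acid, at 127 against 508.

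The same name was the highest at day 4.5 and 5 in the other experiments. Mature Somites were at 464 ± 189 in MULTI-seq 2 at day 4.5 (258, 439.6 and 855 as lowest, median and highest, n = 8), above Late Anterior PSM at 131 ± 62.7 (n = 4), the next name with at least 4 gastruloids. Over pooled thinned cells Mature Somites held 1.95 UMIs, Early Posterior PSM 1.24 (68 cells), Caudal Epiblast 1.16 (77 cells) and Late Anterior PSM 0.82 (82 cells). They were at 332 ± 103 in MULTI-seq 1 at day 5 (154, 314 and 539, n = 23), above Late Anterior PSM at 78.4 ± 31.5 (n = 19). Mature Somites did not overlap Late Anterior PSM in either experiment. The other pool of MULTI-seq 2, with days 4 and 4.5 together, gave 418 and 457 in its 2 lanes. There Caudal Epiblast, at 519 and 592, and Primitive Streak, at 881 and 929 (31 and 24 cells), stood above Mature Somites. Early Neurectoderm did too, at 477 and 461 (43 and 26 cells), in the second lane by little. Below the top the order was loose. Of neighbouring pairs in the order, 4 of 6, 4 of 7, 12 of 15, 5 of 7 and 9 of 10 were closer than the larger SD at days 3, 3.5, 4, 4.5 and 5 of MULTI-seq 3. In MULTI-seq 2 this held for 3 of 8 pairs at day 4 and 6 of 8 at day 4.5, and in MULTI-seq 1 for 7 of 8.

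**Figure D2:**
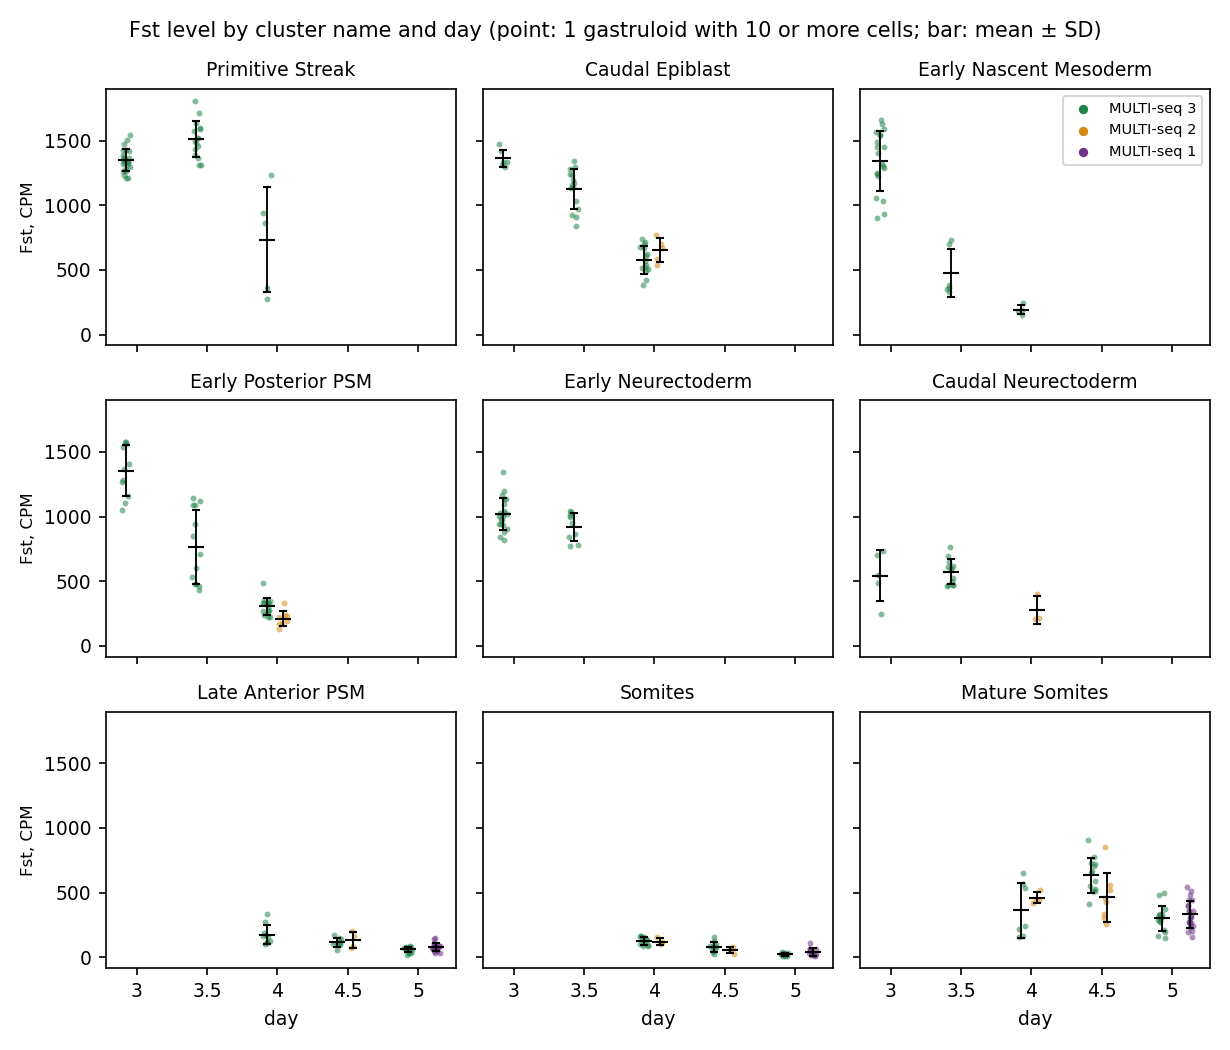
Fst level in CPM (vertical axis) against day (horizontal axis) for 9 cluster names; each point is 1 gastruloid with at least 10 cells of that name, coloured by experiment, with mean ± SD as bars. Primitive Streak reaches 1514 at day 3.5, while Mature Somites appear at day 4 and stand at 635 at day 4.5, above Somites at 80.6.

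Early Spinal Cord and NMPs, the neuromesodermal progenitors, were among the names with the least Fst at the late days of MULTI-seq 3. Early Spinal Cord was at 8.46 ± 4.00 at day 4.5 (n = 15) and 2.39 ± 1.00 at day 5 (n = 16), and NMPs at 15.2 ± 8.54 (n = 13) and 4.89 ± 4.42 (n = 16; 2.04 without lane B). In MULTI-seq 2 at day 4.5 NMPs were 6th of 9 names, at 36.1 ± 27.6 (n = 8), but 7.63 to 18.2 with a lane left out. The lowest name with at least 50 pooled cells was Endothelium at day 5, with 2.51 CPM in MULTI-seq 3 and 4.13 in MULTI-seq 1. Mature Somites, pooled in the same way, held 117 and 77.6 times that level, but the Endothelium values rest on 12 and 5 UMIs. Over gastruloids the mean of Endothelium in MULTI-seq 3 at day 5 ranged from 0.68 (without lane B) to 7.0 (without lane A). At day 4.5 of MULTI-seq 3 Endothelium was not low, at 146 CPM, though this was 68 UMIs in 12 cells. The ratio of highest to lowest name was 6.14, 90.5, 42.4 and 65.8 on days 3, 3.5, 4 and 4.5.

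Single cells were compared after each was thinned to 5000 UMIs. A thinned cell of Mature Somites held an Fst UMI in 72.3% of cases at day 4, 74.8% at day 4.5 and 54.2% on day 5 of MULTI-seq 3, against 36.2%, 24.1% and 7.45% of Somites cells. Without thinning, the shares were 92.8%, 91.9% and 79.9% in Mature Somites and 77.5%, 56.3% and 29.2% in Somites. Endothelium of day 5 gave 1.64% of 122 cells (median depth 30148 UMIs, against 24908 in Mature Somites). In MULTI-seq 2 the thinned share in Mature Somites was 64.4% at day 4 and 61.5% at day 4.5, and in MULTI-seq 1 it was 54.6%. Unthinned, 5.19% of the 77 Endothelium cells of MULTI-seq 1 held a UMI. Cells of Mature Somites differed widely among themselves. At day 4.5 the median thinned cell held 2 UMIs, the cell at the 90th percentile 7 and the highest 19. Primitive Streak at day 3 was more even, with a median of 6 and a 90th percentile of 12, and 97.8% of its thinned cells held a UMI. The lowest name of that day with at least 50 cells, primordial germ cells, still gave 46.6% of 58 cells. How much of such shares is RNA from outside the cell was not tested. Over all cells of MULTI-seq 3 the thinned share was 94.1%, 78.3%, 40.7%, 27.2% and 20.7% from day 3 to day 5, and unthinned it was 98.0%, 93.5%, 71.9%, 52.2% and 38.5%. Thinning left out 189 shallower cells of MULTI-seq 1 and none of the other called cells.

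The cell types that held most of the gene's RNA differed between days. Primitive Streak held 63.3% of Fst UMIs at day 3, with 56.8% of the cells. At day 3.5 Caudal Epiblast held 26.5% (16.6% of cells) and Primitive Streak 25.2% (12.03% of cells). At day 4 no name held more than Early Posterior PSM, with 20.1% (13.9% of cells), and Mature Somites held 16.0% (6.87% of cells). Mature Somites then held 73.5% at day 4.5 with 19.97% of the cells, and 85.1% at day 5 with 28.8%. Per gastruloid this share was 65.1 ± 24.4% at day 4.5 (14.5% to 87.8%, n = 16) and 84.6 ± 4.92% at day 5 (75.9% to 92.5%, n = 16). In MULTI-seq 1 the pooled share was 72.8% with 17.7% of the cells, and 68.1 ± 14.8% per gastruloid (n = 24). The shares in MULTI-seq 2 were 23.7% on day 4 and 61.5% on day 4.5, with 12.4% and 21.98% of the cells. Per gastruloid they were 17.5 ± 25.3% (0% to 65.1%, median 0%, n = 11) and 46.2 ± 29.8% (0% to 80.4%, median 54.3%, n = 12). On day 4 of MULTI-seq 3 the share per gastruloid was 14.8 ± 25.1% (0% to 69.3%, median 1.68%, n = 16), so in both experiments a few gastruloids carried the pooled value of that day.

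**Figure D3:**
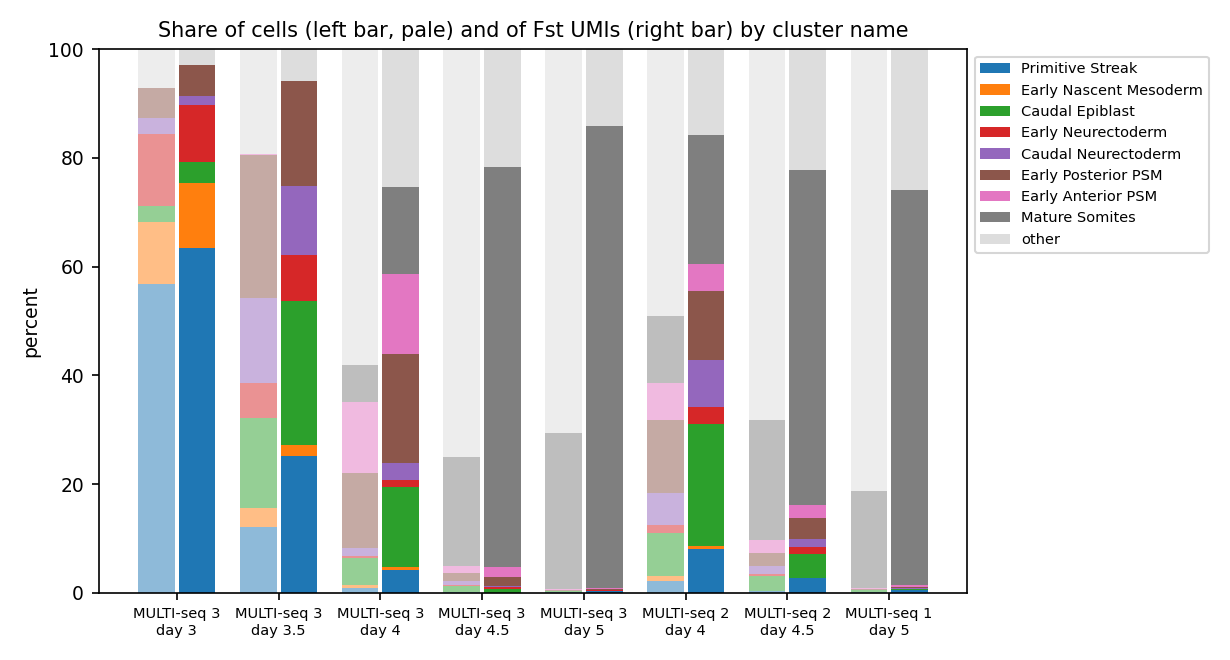
Share in percent (vertical axis) of called cells (left, pale bar) and of Fst UMIs (right bar) by cluster name, for each experiment and day. Primitive Streak fills 63.3% of the Fst bar at day 3 of MULTI-seq 3, and Mature Somites 85.1% at day 5.

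To set the makeup of the gastruloids apart from the level within cell types, the levels of a day were weighted by the makeup of another. Between days 3.5 and 4 of MULTI-seq 3 the pooled level over the 16 names found at both days was 742 and 176 CPM. With day 4 levels at the day 3.5 makeup it would be 391, and with day 3.5 levels at the day 4 makeup 385. Of these names, 15 of 16 were lower at day 4, but they hold only 61.3% of the UMIs of day 4. Between days 4.5 and 5 the pooled level was 144 and 90.9. It would be 73.6 with day 5 levels at the day 4.5 makeup and 183 with day 4.5 levels at the day 5 makeup, and 13 of 16 names were lower at day 5. In MULTI-seq 2 the values were 192 at day 4 and 122 at day 4.5, 135 with late levels at the early makeup and 160.3 the other way, and 13 of 17 names were lower. The other steps of MULTI-seq 3 compare different pools. From day 3 to day 3.5 the level over 12 shared names was 1227 and 775, 1141 with day 3.5 levels at the day 3 makeup and 1024 the other way, and 6 names were lower and 6 higher. From day 4 to day 4.5 it was 174 and 145, 125 with day 4.5 levels at the day 4 makeup and 161 the other way, and 14 of 17 names were lower.

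Fitted within a cell type, the log2 fold change of Fst was below 0 in each one tested. Between days 3.5 and 4 the log2 fold change was −0.92 ± 0.07 (SE) in Caudal Epiblast, −1.35 ± 0.14 in Early Posterior PSM, −1.07 ± 0.17 in Primitive Streak and −0.59 ± 0.23 in Early Spinal Cord. The 5 day 4 gastruloids with Primitive Streak spread widely (734 ± 406 CPM, SD), which the SE of the fit does not show. Between days 4.5 and 5 the log2 fold change was −1.06 ± 0.13 in Mature Somites, −1.72 ± 0.22 in Somites and −0.94 ± 0.16 in Late Anterior PSM. It was smaller in Late Posterior PSM, at −0.11 ± 0.19, where gastruloids averaged 42.1 and 37.8 CPM. Late Spinal Cord (−0.62 ± 0.25) and Mature Endoderm (−0.47 ± 0.38) were also measured. In Early Spinal Cord and NMPs of those days Fst did not pass the filter on low counts. MULTI-seq 2 allowed such a fit in Late Posterior PSM, with −0.45 ± 0.23 between days 4 and 4.5. A minimum of 20 cells moved the log2 fold change in MULTI-seq 3 to −1.21 in Early Posterior PSM and to −1.19 in Late Anterior PSM.

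The authors' table calls each gastruloid mesodermal, neural or, at day 5, intermediate. The sources used here do not say how the class was set. At day 4.5 Fst was higher in the mesodermal class without overlap, though in MULTI-seq 2 the classes nearly touched, at 110.4 and 110.0 CPM. In MULTI-seq 3 mesodermal gastruloids lay at 134 to 257 CPM (200.4 ± 42.5, n = 9) and neural ones at 39.3 to 107 (65.4 ± 28.8, n = 7), a ratio of 3.06. In MULTI-seq 2 they lay at 110.4 to 213 (159 ± 39.3, n = 7) and 26.3 to 110.0 (55.9 ± 33.5, n = 5), a ratio of 2.85. At day 5 of MULTI-seq 1 mesodermal gastruloids were at 124 ± 43.9 (69.3 to 206, n = 7), intermediate ones at 62.0 ± 15.9 (n = 9) and neural ones at 43.7 ± 6.73 (35.2 to 55.4, n = 8), a ratio of mesodermal to neural of 2.84. In MULTI-seq 3 at day 5 the classes overlapped, at 108 ± 35.9 (n = 8) and 67.5 ± 10.8 (n = 4), a ratio of 1.60. At the earlier days the ratio was near or below 1, with overlap. It was 1.06, 0.83 and 0.66 on days 3, 3.5 and 4 of MULTI-seq 3 (2 neural gastruloids on day 4), and 0.76 at day 4 of MULTI-seq 2 (3 neural gastruloids).

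Mature Somites made up more of the cells of mesodermal than of neural gastruloids. If the class was set from the makeup, these shares are not independent of it, and the 2 cannot be told apart here. At day 4.5 of MULTI-seq 3 it was 31.4 ± 9.75% in mesodermal and 4.79 ± 2.32% in neural gastruloids. MULTI-seq 2 had 29.7 ± 7.49% and 1.84 ± 2.15%. At day 5 of MULTI-seq 3 it was 40.3 ± 5.29% and 15.0 ± 2.42%. MULTI-seq 1 had 32.8 ± 5.63% and 7.16 ± 2.75%. Within Mature Somites cells the order was the other way, with overlap in MULTI-seq 1 and 3. Mesodermal and neural gastruloids had 599 ± 116 (n = 9) and 717 ± 155 (n = 4) at day 4.5 of MULTI-seq 3, a ratio of 0.83. At day 5 they had 259.9 ± 82.5 (n = 8) and 407.5 ± 90.7 (n = 4), a ratio of 0.64. In MULTI-seq 1 they had 326 ± 104 (n = 7) and 385 ± 107 (n = 7), a ratio of 0.85. In MULTI-seq 2 at day 4.5 only 1 neural gastruloid had enough Mature Somites cells, and at 855 it was above the 7 mesodermal ones. That value rests on few cells, since Mature Somites were at most 4.35% of the cells of a neural gastruloid there. Early Posterior PSM at day 3.5 also had less Fst in mesodermal (590.0 ± 163, n = 6) than in neural gastruloids (914 ± 287, n = 7), again with overlap. Its ratio of 0.65 was the lowest of that day, beside 0.86 in Caudal Neurectoderm, 0.87 in Caudal Epiblast and 0.89 in Primitive Streak. Other names did not keep this direction. Early Neurectoderm had a ratio of 1.13 at day 3. NMPs had 1.79 in MULTI-seq 1, and 1.26 and 0.69 at days 4.5 and 5 of MULTI-seq 3. Late Anterior PSM at day 5 had 1.15 in MULTI-seq 3 and 0.57 in MULTI-seq 1.

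**Figure D4:**
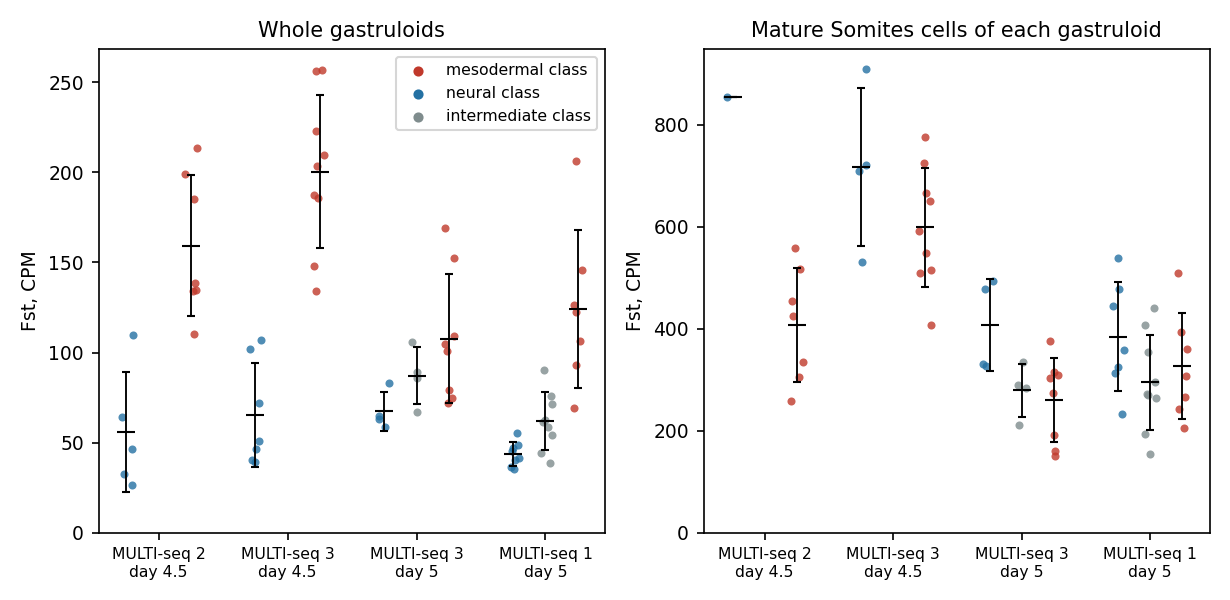
Fst level in CPM (vertical axis, linear from 0) by class for days 4.5 and 5; each point is a gastruloid, in whole (left) or its Mature Somites cells (right), with mean ± SD as bars. Whole mesodermal gastruloids of day 4.5 in MULTI-seq 3 sit at 134 to 257, above neural ones at 39.3 to 107, while within Mature Somites the 2 classes overlap except in MULTI-seq 2, where the neural class has 1 gastruloid, at 855.

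The authors also mapped each cell to a type of an embryo reference. Mature Somites cells mapped to sclerotome, the somite part that forms cartilage and bone, and to dermomyotome, which forms dermis and muscle, had close means at day 4.5 of MULTI-seq 3, at 716 ± 213 (n = 9 gastruloids) and 713 ± 174 (n = 10). Cells mapped to posterior somitic tissues were at 428 ± 69.1 (n = 9). At day 5 sclerotome was at 356 ± 119 and dermomyotome at 278 ± 100.4 (n = 16 each), and posterior somitic tissues at 245 ± 96.4 (n = 16). Higher than these at day 5 were anterior somitic tissues (549 ± 198, n = 3) and cranial mesoderm (421 ± 197, n = 6), in fewer gastruloids. In MULTI-seq 2 at day 4.5 sclerotome was at 585 ± 107 (n = 6) and dermomyotome at 545 ± 155 (n = 7). In MULTI-seq 1 sclerotome was at 443 ± 155 (n = 20) and dermomyotome at 262 ± 92.4 (n = 19). In MULTI-seq 3 at day 4 sclerotome was at 926 ± 169 (n = 3) and dermomyotome at 513 ± 332 (n = 4). The types are mapped from the same counts, so these values are a description.

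Within a cell type, it was tested whether single cells with an RNA of a second gene more often held Fst. The 4 names with the highest mean level were taken, and 25 pairs of name and gene from a list of 25 genes could be tested in MULTI-seq 3. With cells thinned to 5000 UMIs and gastruloids as replicates (2-sided sign-flip permutation test), 3 pairs passed an adjusted p of 0.05 and 6 an unadjusted one, and the 3 were all in Primitive Streak and all positive. Cells with the mesoderm factor Mesp1 held Fst in 100% of cases and those without in 97.9 ± 0.90% (higher in 11 of 11 gastruloids, adjusted p = 0.0122 by the exact test). For Mixl1, a factor of the streak, the shares were 99.5 ± 1.39% and 97.7 ± 1.81% (18 of 27 gastruloids higher and 3 lower, permutation adjusted p = 0.0020). For T, the streak factor Brachyury, they were 98.2 ± 1.22% and 92.3 ± 9.49% (14 of 21 higher and 6 lower, permutation adjusted p = 0.0168, day 3 gastruloids). These shares are near their ceiling. A side with few cells can then reach 100% without any relation, so the test by share cannot decide for Mesp1 or Mixl1. With cells thinned to 3000 UMIs 3 of 17 pairs passed, those of T and Mixl1 in Primitive Streak and of T in Early Nascent Mesoderm. The Mesp1 call was lost there (exact permutation adjusted p = 0.8125). With at least 20 cells on each side 2 of 5 passed, Mixl1 and Acvr2b in Primitive Streak.

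The mean number of Fst UMIs per thinned Primitive Streak cell, a measure added after seeing the data, has no such ceiling. Cells with T held 6.79 ± 0.45 and those without 4.82 ± 0.78 (higher in 21 of 21 gastruloids, permutation adjusted p = 0.00025). Mixl1 gave 7.34 ± 0.84 and 6.54 ± 0.63 (21 of 27 higher, adjusted p = 0.000625). The segmentation oscillator Hes7 gave 7.60 ± 1.16 and 6.89 ± 0.90 (24 of 30, permutation adjusted p = 0.00208). Gsc, a factor of the anterior streak, gave 7.67 ± 0.73 and 6.79 ± 0.29 (11 of 12, permutation adjusted p = 0.00916). By this measure 4 of 25 pairs passed and 9 passed unadjusted. Mesp1 was not among the 4. T and Mixl1 are among the streak markers listed for this report, and the names were made from the same counts. By either measure these tests are thus not independent of the naming of the cells. At day 3 the mean over all thinned cells was 6.62 in Primitive Streak and 4.92 in Early Neurectoderm. Whether Primitive Streak cells without T lie nearer to other names was not tested.

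In Mature Somites, tested in the same way after seeing the data, no pair passed by the share of cells. That was 0 of 11 pairs in MULTI-seq 3, 0 of 9 in MULTI-seq 1 and 0 of 6 in MULTI-seq 2, with 1, 1 and 0 pairs at an unadjusted p under 0.05. Foxc2, a transcription factor of sclerotome and somites, had the same sign in each experiment. Cells with Foxc2 held Fst in 66.0 ± 11.5% against 61.8 ± 16.9% of cases (26 of 33 gastruloids higher, permutation adjusted p = 0.157), 58.8 ± 8.60% against 51.4 ± 11.3% (15 of 19, permutation adjusted p = 0.0992) and 70.0 ± 11.6% against 61.2 ± 11.3% (7 of 10, exact permutation adjusted p = 0.352). With at least 20 cells on each side 3 of 9 pairs passed in MULTI-seq 3, those of Foxc2, Pax3 and Tcf15, all positive. These genes are among the somite markers listed for this report, so their tests too are not independent of the naming of the cells. At day 5 alone 2 of 11 passed there, those of Foxc2 and Tcf15. At day 4.5 alone 0 of 7 passed (1 unadjusted), and the Foxc2 shares were 73.2 ± 8.87% and 77.8 ± 12.2% (5 of 10 gastruloids higher). By mean UMIs, cells with the Notch ligand Dll1 held less Fst in MULTI-seq 1, at 0.96 ± 0.35 against 1.46 ± 0.32 (lower in 12 of 12 gastruloids, permutation adjusted p = 0.00439). That was 1 of 9 pairs. By the same measure 0 of 11 passed in MULTI-seq 3 (3 unadjusted) and 0 of 6 in MULTI-seq 2 (0 unadjusted), and Dll1 in MULTI-seq 3 gave 1.89 ± 1.17 against 1.91 ± 0.91 (lower in 12 of 21 gastruloids, permutation adjusted p = 0.952).

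The genes whose pattern was most like that of Fst were ranked over 24 cluster names of MULTI-seq 3, by Pearson's r of log2(CPM + 10). The 10 at the top were Oxct1 (r = 0.85), Fam53b (0.84), Jade2 (0.81), Taf7, Fah, Pou5f1, Ina and Atp5f1 (each 0.78), Ogdhl (0.76) and Rtl8b (0.75). No gene reached 0.9. An r does not measure the size of the differences. Fst ran from 14.3 to 1338 CPM over these names. Atp5f1 was at 585 in its highest name and 488 in the median one, and Fam53b at 28.1 and 14.1. Pou5f1, the pluripotency factor Oct4, was at 709.9 CPM in Early Neurectoderm and 3.07 in Mature Somites, so it did not share the late part of the pattern. Over 13 names of MULTI-seq 1 the r of these 10 genes ran from −0.45 for Jade2 to 0.43 for Oxct1, and 0 of the 10 were among the top 10 there. The names share libraries, so these r are a description.

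Around Fst, a list of 42 genes of the activin, Nodal and BMP pathways was counted in each comparison of days (edgeR's quasi-likelihood test, Benjamini-Hochberg adjustment over all genes tested, adjusted p of 0.05). Between days 3.5 and 4 of MULTI-seq 3, 30 members could be tested, of which 17 rose and 1 fell, beside 60.4% of all genes called in either direction. The share of the list that was called was thus close to that of all genes. The list's median log2 fold change was 0.26, against 0.01 over all genes tested. The classes differed between these days, with 6 mesodermal and 10 neural gastruloids at day 3.5 but 14 and 2 at day 4. The fit held no term for class or makeup, and what part of these changes goes with them was not tested. Among the ligands 1 of 5 passed. Bmp4 rose from 3.85 ± 2.98 to 9.43 ± 6.98 CPM (log2 fold change 1.19 ± 0.39 SE, adjusted p = 0.00901, 13 of 16 day 4 gastruloids above the day 3.5 median). Of the receptors 5 rose and 1 fell of 9. They included the BMP type II receptor Bmpr2 (18.7 ± 4.18 to 28.3 ± 3.74, log2 fold change 0.56), which was above the earlier median in 16 of 16 gastruloids.

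Of 7 other secreted inhibitors that could be tested in the same step, 4 rose and 0 fell. The share called is near that of all genes called in either direction, which does not speak to the direction. Among the 3 that did not pass were the Nodal inhibitors Lefty1 (7.82 ± 6.87 to 3.25 ± 3.97 CPM, adjusted p = 0.054) and Lefty2 (14.2 ± 17.2 to 8.73 ± 8.96, adjusted p = 0.301). Cer1, a secreted inhibitor of Nodal and BMPs, rose from 1.57 ± 2.13 to 43.7 ± 37.9 CPM (log2 fold change 4.60 ± 0.61, adjusted p = 2.17e-07), and 15 of 16 day 4 gastruloids were above the earlier median. The BMP antagonists Nog and Chrd rose by log2 fold changes of 1.34 ± 0.38 and 1.03 ± 0.30 (adjusted p = 0.00308 and 0.0042). Of the transducers 7 of 9 rose. Among them were the inhibitory Smad7 (1.05 ± 0.22) and Smad6 (0.77 ± 0.20) and the pseudoreceptor Bambi (0.80 ± 0.21). Fst itself had a log2 fold change of −2.03 in this fit. Each of the 8 members named here kept its call in the 9 alternatives run.

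The activin subunits that Fst binds were barely detected. Inhba averaged from 0.010 CPM at day 3 to 0.76 at day 4 of MULTI-seq 3, Inhbb was at 0.076 or less at each day, and neither passed the filter in the comparisons of days. Gdf11, another ligand of follistatin, was at 6.91 ± 2.00 on day 3 and 16.5 ± 5.33 on day 3.5. It was then at 13.6 ± 4.24, 18.2 ± 2.48 and 19.8 ± 3.40 on days 4, 4.5 and 5. Nodal was at 24.6 ± 5.36 at day 3 and between 1.25 and 5.90 at the later days. Fstl1, a relative with a follistatin domain, stood at 36.3 ± 5.60 at day 3 and at 72.2 ± 12.1 at day 3.5, whereas Fstl3 was at 0.13 or less. The receptor Acvr2b was at 62.3 ± 4.06 at day 3, 94.4 ± 7.06 at day 4 and 82.9 ± 4.96 at day 5.

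**Figure D5:**
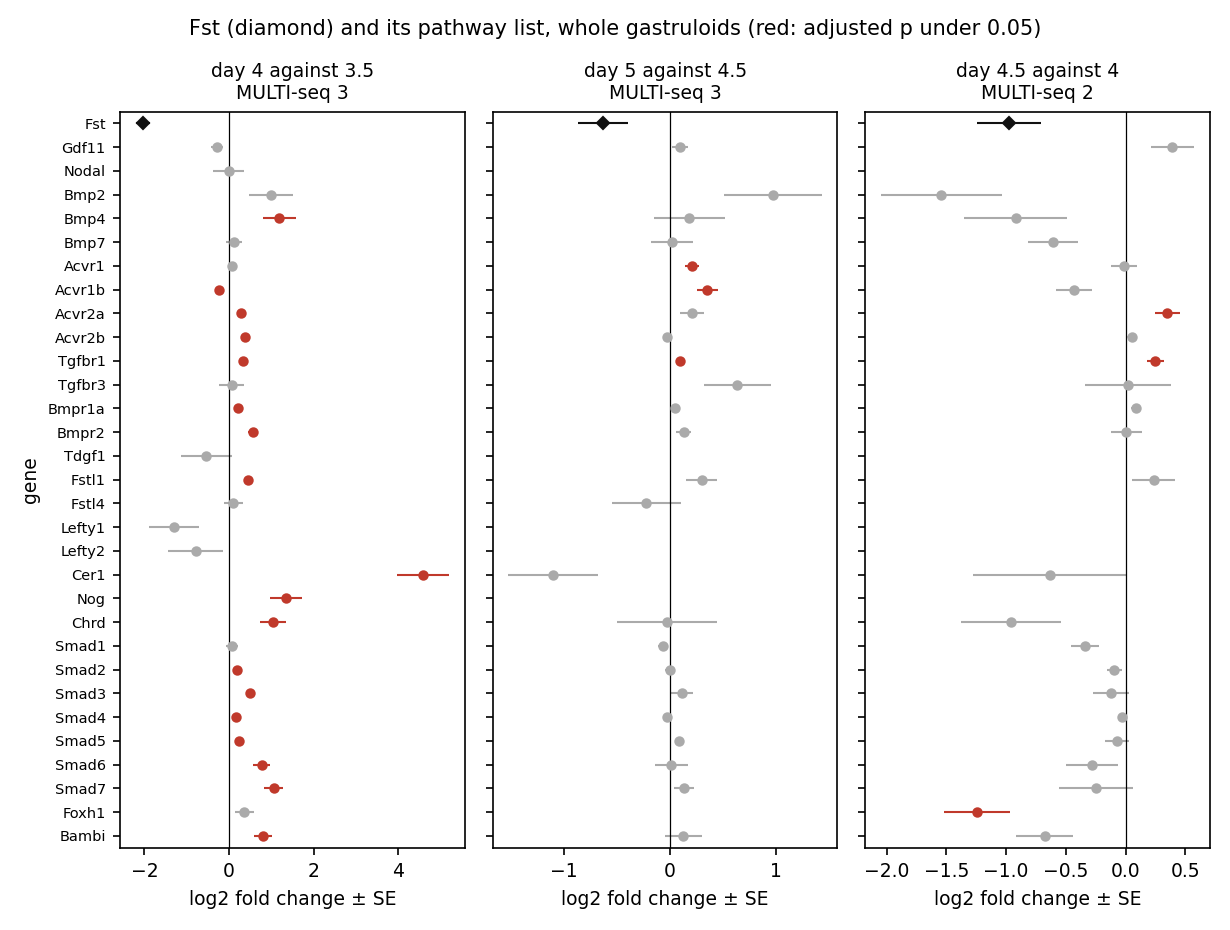
Log2 fold change ± SE (horizontal axes) of Fst (diamond, shown without a test) and of the pathway members tested, whole gastruloids, in the 3 comparisons of days within a pool; red marks an adjusted p under 0.05. Fst lies at −2.03, −0.63 and −0.98, and Cer1 at 4.60 between days 3.5 and 4.

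The later comparisons of whole gastruloids held fewer calls, over all genes as well as in the list. Between days 4.5 and 5 of MULTI-seq 3, 3 of 24 members tested rose and 0 fell, beside 13.5% of all genes. They were the type I receptors Acvr1b (log2 fold change 0.35 ± 0.10, adjusted p = 0.0156), Acvr1 (0.21 ± 0.07, adjusted p = 0.0301) and Tgfbr1 (0.10 ± 0.03, adjusted p = 0.0432). The fold changes were small, and without lane A that of Acvr1b was lost (adjusted p = 0.115, with 0.0123 to 0.115 over the 8 alternatives), and without lane B or C that of Acvr1 (adjusted p = 0.0832 and 0.18, with 0.0244 to 0.18 over 8), though the log2 fold changes were then 0.29 for Acvr1b and 0.24 and 0.17 for Acvr1. That of Tgfbr1 was lost in 5 of 8 alternatives, each lane left out among them (adjusted p from 0.0326 to 0.132, log2 fold changes from 0.09 to 0.12). Between days 4 and 4.5 of MULTI-seq 2, 2 of 24 members rose and 1 fell, beside 7.36% of all genes. Foxh1, the Nodal-responsive partner of Smad2, fell from 6.58 ± 2.29 to 2.73 ± 1.76 CPM (log2 fold change −1.24 ± 0.28, adjusted p = 0.00652). All 12 gastruloids of day 4.5 were below the day 4 median, and the call held in 7 of 7 alternatives. Acvr2a (0.35 ± 0.10, adjusted p = 0.0407) and Tgfbr1 (0.25 ± 0.07, adjusted p = 0.0364) lost theirs in 5 and 4 of 7 alternatives, without lane 2 and without lane 3 in each case (adjusted p from 0.0275 to 0.409 and from 0.0287 to 0.241). With at least 100 cells per gastruloid, which left 6 gastruloids of day 4 and 11 of day 4.5, 1 of 28 members rose and 7 fell, beside 804 of 11597 genes called (300 higher and 504 lower). With all gastruloids 814 of 11064 genes were called, 535 without lane 2 and 340 without lane 3. Scaled by library totals, the split of higher and lower calls was 903 to 645 instead of 781 to 874 in MULTI-seq 3, and 511 to 381 instead of 335 to 479 in MULTI-seq 2.

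Days 3.5 and 4 of MULTI-seq 3 were also compared within 4 cell types. In Primitive Streak 3 of 19 members rose and 0 fell, beside 5.58% of all genes, with 5 day 4 gastruloids. They were Nodal (21.6 ± 14.9 to 91.8 ± 58.8 CPM, log2 fold change 2.15 ± 0.34, adjusted p = 8.45e-05), its co-receptor Tdgf1 (27.9 ± 22.4 to 102.6 ± 93.1, 1.92 ± 0.46, adjusted p = 0.00815) and the Nodal inhibitor Lefty1 (23.3 ± 32.1 to 80.2 ± 69.7, 1.92 ± 0.58, adjusted p = 0.0456). For each, 4 of 5 day 4 gastruloids were above the earlier median. In Early Posterior PSM 9 of 24 members rose and 5 fell, beside 38.3% of all genes. Tdgf1 fell there from 28.1 ± 19.0 to 10.6 ± 8.50 (log2 fold change −1.42 ± 0.29, adjusted p = 0.000134), below the earlier median in 16 of 16 gastruloids. Lefty2 (−0.81), Bmp7 (−0.73), Foxh1 (−0.62) and Smad1 (−0.43) also fell, and Bmp4 (0.71), Smad7 (0.52) and Smad3 (0.42) rose. Scaled by library totals, all calls split 2710 to 1221 there instead of 1893 to 1786, and the directions of those 8 members stayed as given. In Caudal Epiblast 3 of 16 members rose, beside 21.2% of all genes. Gdf11 rose from 17.1 ± 4.49 to 24.6 ± 5.91 (0.46 ± 0.12, adjusted p = 0.00458), and Acvr2b (0.22 ± 0.06, adjusted p = 0.00509) and Smad3 (0.41 ± 0.15, adjusted p = 0.0473) also passed. The Smad3 call was lost in 3 of 4 alternatives (adjusted p from 0.0489 to 0.113), though the log2 fold changes stayed at 0.39 to 0.43. Early Spinal Cord held 0 of 11, beside 2.80% of all genes.

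Between days 4.5 and 5 the inhibitor Cer1 fell in both somitic names. In Mature Somites it fell from 28.1 ± 15.3 to 9.61 ± 3.60 CPM (log2 fold change −1.73 ± 0.20, adjusted p = 7.96e-08), and all 16 day 5 gastruloids were below the earlier median. Bambi (−0.37 ± 0.12, adjusted p = 0.0379) was the other of 2 members of 20 that fell there, with 0 that rose, beside 14.0% of all genes. Its call was lost without the filter on low counts (adjusted p = 0.0779, with 0.0256 to 0.0779 over 4 alternatives). In Somites 1 of 11 members rose and 1 fell, beside 3.60% of all genes. Cer1 fell from 136 ± 50.4 to 74.2 ± 31.0 (−0.87 ± 0.17, adjusted p = 0.00063), and Fstl1 rose from 184 ± 17.9 to 227 ± 29.5 (0.32 ± 0.08, adjusted p = 0.00735). Fst was lower at day 5 in both names, as given above.

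In the other cell types of those days 0 to 3 members passed, given here beside the share of all genes. Early Spinal Cord had 3 of 17, beside 12.4% of all genes. These were Acvr1b (0.51 ± 0.17, adjusted p = 0.0418, lost in 1 of 4 alternatives with a range of 0.0351 to 0.0813), Gdf11 (0.31 ± 0.10, adjusted p = 0.0253) and Tgfbr1 (0.20 ± 0.07, adjusted p = 0.0381). NMPs had 2 of 13, beside 7.55%, which were Smad3 (0.54 ± 0.17, adjusted p = 0.0343, lost in 2 of 4 alternatives with a range of 0.0199 to 0.101) and Gdf11 (0.37 ± 0.10, adjusted p = 0.0124). Late Posterior PSM had 2 of 15, beside 6.88%. Bmp2 rose there from 5.39 ± 4.11 to 11.8 ± 5.11 CPM (log2 fold change 1.197 ± 0.24, adjusted p = 0.000539), and Smad1 fell by 0.24 on the log2 scale (adjusted p = 0.0454, lost in 3 of 4 alternatives with a range of 0.0496 to 0.1001). Late Spinal Cord had 1 of 16, beside 7.79%, the activin receptor Acvr2a (22.3 ± 2.71 to 31.7 ± 5.72, 0.54 ± 0.09, adjusted p = 0.000684). Late Anterior PSM had 0 of 13, beside 2.86%, and Mature Endoderm 0 of 18, beside 1.63%. In MULTI-seq 2 Late Posterior PSM had 0 of 11 between days 4 and 4.5, beside 1.13%. Scaled by library totals, the split of higher and lower calls was 370 to 170 instead of 262 to 276 in Late Posterior PSM, 308 to 594 instead of 387 to 386 in Late Spinal Cord, 407 to 160 instead of 246 to 311 in NMPs, 69 to 129 instead of 92 to 99 in Early Spinal Cord between days 3.5 and 4, and 37 to 18 instead of 33 to 38 in MULTI-seq 2.

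The same day could be compared between experiments, where culture, library, lanes and makeup can differ together and cannot be told apart. At day 5 Mature Somites were 31.0 ± 11.7% of the cells of a gastruloid in MULTI-seq 3 and 18.2 ± 11.3% in MULTI-seq 1. Within that name Fst was at 302 ± 97.0 and 332 ± 103 CPM. At day 4.5 the share was 19.7% in MULTI-seq 3 and 18.1% in MULTI-seq 2, and at day 4 it was 6.33% and 8.72%. Fst differed by a log2 fold change of −0.36 ± 0.18 at day 4 (MULTI-seq 3 against 2), 0.31 ± 0.32 at day 4.5 (0.15 without lane 3 and 0.44 without lane 2 of MULTI-seq 2) and 0.57 ± 0.18 at day 5 (MULTI-seq 3 against 1), with overlapping gastruloids each time. At least 100 cells per gastruloid moved the first to −0.15, scaling by library totals moved it to −0.20, and the same scaling moved the last to 0.35. Of the pathway list 7 of 32 members were higher and 1 lower at day 4, beside 46.1% of all genes. Acvr2a (0.66 ± 0.06), Smad2 (0.51 ± 0.05), Tgfbr1 (0.46 ± 0.06) and Smad4 (0.35 ± 0.03) were higher in MULTI-seq 3, and Foxh1 was lower by a log2 fold change of −1.22 ± 0.24. Acvr2b, Smad5 and Bmpr1a were higher by 0.21, 0.18 and 0.15 (0.37, 0.34 and 0.31 scaled by library totals), and the Smad5 call was lost without lane 2 of MULTI-seq 2 (adjusted p = 0.142, with 0.000222 to 0.186 over 11 alternatives).

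At day 4.5, 2 of 23 members were higher and 2 lower, beside 42.5% of all genes. Acvr1 (−0.27 ± 0.09) and Bmpr2 (−0.25 ± 0.09) were lower, and Acvr2b (0.16 ± 0.03) and Smad4 (0.12 ± 0.03, and 0.07 scaled by library totals) higher. Without lane 3 of MULTI-seq 2 the calls of Acvr1 and Bmpr2 were lost (adjusted p = 0.0684 and 0.0771, with 0.0041 to 0.0684 and 0.00536 to 0.0771 over 10 alternatives), and without lane 2 that of Smad4 (adjusted p = 0.0909, with 8.75e-05 to 0.0909). At day 5, 5 of 23 were higher in MULTI-seq 3 and 3 lower, beside 63.7% of all genes. Tgfbr3 (0.79 ± 0.24), Chrd (0.77 ± 0.30), Smad4 (0.36 ± 0.02) and Acvr2a (0.34 ± 0.15) were higher, and Smad6 (−0.58 ± 0.12), Acvr1 (−0.29 ± 0.06) and Acvr2b (−0.20 ± 0.02) lower. Scaled by library totals, the log2 fold changes of Smad4 and Acvr2a were 0.13 and 0.11 (adjusted p = 0.494 for Acvr2a) and those of Acvr1 and Acvr2b −0.52 and −0.42. Chrd lost its call with that scaling (0.56, adjusted p = 0.0971). Bmpr1a was higher by 0.10 ± 0.04 but lower, at −0.12, with it. Chrd was lost without lane 1 of MULTI-seq 1 (adjusted p = 0.0501, with 0.0167 to 0.0971 over 11), Bmpr1a without that lane too (adjusted p = 0.0908, with 0.00185 to 0.0908) and Acvr2a without lane C of MULTI-seq 3 (adjusted p = 0.0574, with 0.0243 to 0.494). Scaling by library totals moved the median log2 fold change of all genes from 0.02 to 0.18 at day 4 and from −0.02 to −0.25 at day 5. It also moved the split of higher and lower calls from 3155 to 3173 into 5319 to 1554 on day 4, from 2468 to 2498 into 1993 to 3082 on day 4.5, and from 3518 to 3945 into 1581 to 7169 on day 5, where 2 members were then higher and 13 lower.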

How the data were processed

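Single-cell RNA of gastruloids was measured on 18 10x Chromium lanes used here. The deposited matrices hold UMI counts, made by the authors with Cell Ranger 6.0.0 on mm10 per the submitters' processing notes. The sources used here do not say by which filter their final table of cells was made. From that table came cluster name, day, gastruloid call, class and mapped type. Cells called Negative (8543), Doublet (4797) or unidentifiable (10604), which include those of lanes without calls, entered no gastruloid. No doublet caller was run, and doublets within a gastruloid may remain. Fst, the pathway list and the second genes were chosen with earlier results of these data known.

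Counts were summed per gastruloid over the lanes of its pool, and per cluster name, and given as CPM. Levels are means ± SD over gastruloids. Comparisons of days within a pool and of experiments at a day used edgeR 4.0.16 (TMM, filterByExpr, quasi-likelihood test) in R 4.3.3, within clusters where both days had at least 5 gastruloids. The SE of a log2 fold change was derived from the F statistic of that fit, not from the spread of the CPM values. The fit was tested on simulated data. Cells were thinned to 5000 UMIs, or 3000 as an alternative. Co-detection was tested by sign-flip permutation, exact under 16 gastruloids and with 100000 resamples otherwise, with at least 10 cells with and without the second gene in at least 6 gastruloids. Intervals are exact Poisson at 95% and cover counting error only. In each comparison up to 8 pathway members past an adjusted p of 0.05 are named, by size of the log2 fold change. Genes most like Fst are the 10 with the highest correlation over clusters of at least 50 cells. Alternatives were DESeq2 1.42.0 (its size factors and its Wald test), no filter on low counts, higher minimums of cells, and each lane left out. Scaling by library totals, co-detection in Mature Somites and mean UMIs were chosen after seeing the data. Single-cell samples of MULTI-seq 2 at days 3 and 3.5 were not analysed here.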

Additional observations from a re-analysis of the deposited data

Results flagged for a closer look

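Of 63 groups of 4 to 10 gastruloids examined, 7 held a gastruloid set apart from the others by Dixon's criterion, which chance meets in about 5% of groups. For Fst these were the highest gastruloids of 5 groups. In Notochord at day 4 of MULTI-seq 3, the midline rod of mesoderm, 1 gastruloid was at 440.2 CPM and the next at 199 (n = 7). In Head Mesoderm it was 135 against 45.6 at day 4.5 of MULTI-seq 2 (n = 5) and 73.9 against 22.5 at day 5 of MULTI-seq 3 (n = 7). Cardiopharyngeal Mesoderm at day 4 of MULTI-seq 3 gave 132.7 against 87.4 (n = 8). Endothelium at day 5 of MULTI-seq 3 gave 11.6 against 1.32, with a median of 0 (n = 6). For Acvr2a the lowest gastruloid of Late Spinal Cord stood apart in MULTI-seq 3, at 16.4 against 21.7 at day 4.5 (n = 7) and at 18.6 against 30.8 at day 5 (n = 8).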

How the results depend on the processing

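No paired analysis was possible because the groups share numbers of lanes only, which are technical splits of a pool, and no gastruloid barcode number occurs at both days of a pool, while numbers that recur between pools name other gastruloids. The Fst levels of whole gastruloids and of classes moved by less than 1 SD in each alternative run. By cluster, the mean over cells gave 147.6 in Early Anterior PSM of MULTI-seq 2 at day 4. With each lane left out in turn, the ranges in MULTI-seq 2 at day 4 were 613 to 744 in Caudal Epiblast, 129.5 to 189.9 in Early Anterior PSM, 66.8 to 103 (without lane 3) in Late Posterior PSM and 4.94 to 11.7 in Mature Endoderm. At day 4.5 they were 6.49 to 12.2 in Late Spinal Cord and 7.63 to 18.2 in NMPs. In MULTI-seq 3 they were 196 to 236 in Early Nascent Mesoderm at day 4 and 0.68 to 7.0 (without lane A) in Endothelium at day 5. The other cluster levels moved by less than 1 SD. Genes called between days 4 and 4.5 of MULTI-seq 2 ranged from 340 to 535 with a lane left out, where fewer cells were summed. Without the filter on low counts, which tests more genes, 242 genes were called in Mature Endoderm (136 with it) and 146 in Late Posterior PSM of MULTI-seq 2 (71 with it). Of the 10 genes most like Fst, 5 were shared by rank correlation and 0 by MULTI-seq 1. Bmpr1a at day 5 between experiments reversed to −0.12 with library totals. The cause of the other changes was not tested. Shallow cells limit the share with a UMI, which was lower after thinning to 3000 UMIs (63.4% in Mature Somites of day 4.5).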
